A study of Mus musculus with 14 samples.

Results

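Where 2 genes on opposite strands run towards each other, their mRNAs end near one another. The poly(A) sites described here are such ends that face without overlapping: a plus-strand site and, downstream of it by at most 1000 nt, the nearest minus-strand site, so that a gap lies between the mature mRNAs. Both sites had at least 30 counts over the controls, and sites with an opposite-strand site within 1000 nt in the overlapping orientation were dropped. Of 1135 plus-strand sites with a facing minus-strand site in range, 446 pairs met the control minimum and 151 of these were dropped for overlap. The remaining 295 pairs held 533 of the 33590 poly(A) sites in the table, 295 on the plus strand and 238 on the minus strand. Position, strand and control counts chose the pairs, and neither decay nor the gradient did.

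The counts came from 3T3 cells, a mouse fibroblast line, by 2P-Seq, which sequences mRNAs from the poly(A) tail inwards. Besides 2 untreated controls there was 1 library from cells given actinomycin D (10 µg/ml) for each of 1, 2, 4 and 8 h. A sucrose gradient was cut into 6 fractions, each of which gave 1 library. Actinomycin D blocks transcription, so existing mRNAs decay, and mRNAs that carry more ribosomes sediment further in sucrose. The series' 2 samples made by 3P-Seq, another 3' end assay, were not used here. The table pairs no site with a gene, so pairs are named by their mm9 positions and the label 3T3 was not checked against marker genes.

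An mRNA's 3' end forms when the nascent transcript is cleaved downstream of a poly(A) signal and a tail is added. Polymerase reads on past that point before it is released, so in a convergent pair the polymerase of either gene can run into the other gene. Convergent mRNAs that overlap share sequence in antisense orientation, whereas the mature mRNAs of the pairs described here do not. How fast an mRNA decays and how many ribosomes it carries depend, among other things, on its own sequence.

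Library totals ran from 4045420 to 6433503 counts in the actinomycin D series and from 1663346 to 11575417 over the gradient, and the sites of the pairs held 4.56 to 5.07% and 3.65 to 8.12% of them. Levels are CPM, counts scaled to a common library total, so a level shows an end's share of its library and not its copies per cell. At 8 h, 3 counts, the limit that a count of 0 allows, came to 0.742 CPM, and 21 of 295 pairs had a partner at 0. Across the 533 sites, which are no independent replicates, Pearson's r between the 2 controls was 0.972 on log2(CPM + 1). The labels do not say whether the controls were separate cultures, each time and fraction has 1 library and the gradient was run once. The p-values below therefore rest on the scatter of single libraries about a line, which may be technical.

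The gaps ran from 1 to 989 nt, with quartiles at 136, 390 and 617.5 nt. Up to 100 nt lay between the ends of 59 pairs, over 100 to 250 nt for 58, over 250 to 500 nt for 67 and over 500 to 1000 nt for 111. In 11 pairs the gap was 5 nt or less. Of the minus-strand sites, 45 were the nearest to more than 1 plus-strand site, at most 4, so 102 pairs share a partner with another pair and are not independent. The 3 pairs just inside the limit had gaps of 985, 988 and 989 nt, with control levels of 516 and 155 CPM, 2.70 and 47.0 CPM, and 5.15 and 152 CPM for the plus-strand and minus-strand ends. Just outside it, 5 pairs had gaps of 1004 to 1013 nt, and their ends ranged from 5.50 to 2845 CPM.

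By their median ratio, facing ends differed in level about as much as other neighbouring ends, a difference that was not tested. The median site had a mean control level of 29.8 CPM (range 2.40 to 5110), against 16.5 CPM over the 16454 sites at the control minimum, and the medians of plus-strand and minus-strand ends were 27.5 and 32.3 CPM. Within a pair the weaker end had a median of 12.5 CPM and the stronger 61.6 CPM, a median ratio of 3.24-fold. In 218 of 295 pairs (73.9%, Wilson 95% interval 68.6 to 78.6) the ends were at least 2-fold apart. The same held for 66.8% of 4407 pairs of adjacent ends on 1 strand within 1000 nt (median 3.17-fold), many of which can be ends of 1 gene, and for 70.5% of 61 convergent pairs whose mature ends overlap (median 3.36-fold). Spearman's rho between the levels of the partners was -0.006 over the 295 pairs, and -0.067, -0.11, 0.092 and -0.0057 in the 4 gap ranges from the shortest to the longest. The median ratio was 2.81-fold at gaps up to 100 nt, 3.13, 4.15 and 3.35-fold in the longer ranges, and 4.09-fold for 182 further pairs with gaps over 1000 to 2000 nt. The gap itself had a rho of 0.033 with the log2 ratio, -0.11 with the weaker level and -0.074 with the stronger. All of these are descriptions over pairs from the same 2 libraries. Adjacent ends on 1 strand had a rho of 0.085 to 0.54 between their levels over the 6 libraries of the actinomycin D series and 0.19 to 0.26 over the gradient, where facing pairs stayed between -0.040 and 0.076 over all 12. By gap, the adjacent ends' rho between mean control levels was 0.20 up to 100 nt, then 0.014, 0.016 and 0.0093. At gaps over 100 nt it was thus as near 0 as in facing pairs. Overlapping pairs had -0.087 to 0.11 in the actinomycin D series and -0.016 to 0.21 over the gradient.

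**Figure D1:**
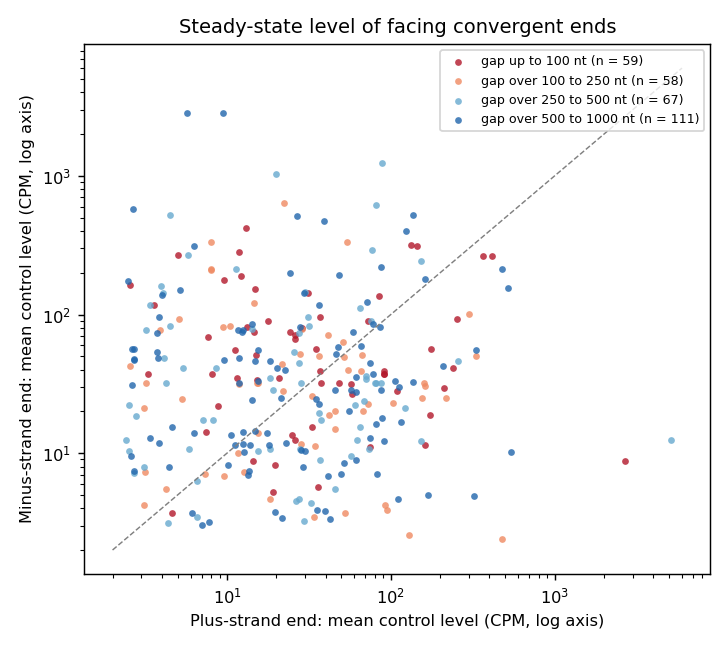
Mean control level of the minus-strand end against that of the plus-strand end for the 295 facing pairs, both in CPM on log axes, coloured by gap, with the dashed line at equal levels. The points fill the plane without a diagonal in any gap range, and 73.9% lie at least 2-fold from equality.

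The most unequal pairs set a very abundant end against a weak one. On chromosome 11, the plus-strand end at 48619586 faced the minus-strand end at 48619925 (gap 339 nt), with a 413-fold ratio of control levels. Its plus-strand end had 5392 and 4828 CPM in the controls and 6015, 6010, 7656 and 8920 CPM at 1, 2, 4 and 8 h, and its minus-strand end 12.15 and 12.59 CPM, then 9, 11.27, 9.11 and 7.66 CPM. All 6 libraries kept the plus-strand end far above its partner. A 308-fold ratio separated the ends at 179993146 and 179993244 on chromosome 2 (gap 98 nt), the plus-strand end at 2898 and 2477 CPM in the controls and the minus-strand end at 8.90 and 8.55 CPM. At 115754910 and 115755523 on chromosome 6 (gap 613 nt) the strong end was the minus-strand one, with 3038 and 2653 CPM against 10.4 and 8.55 CPM, a 299.7-fold ratio. In the authors' deposited table the strong ends of these 3 pairs had half-lives of 11.2, 13.6 and 10.4 h and 3.42, 2.87 and 2.88 ribosomes per mRNA. Their weak partners had 3.72, 2.34 and 3.15 h and 5.28, 4.55 and 6.44 ribosomes per mRNA in the authors' deposited table. The abundant end was thus the longer lived and the less ribosome-loaded in each of the 3.

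Among pairs with at least 500 control counts at each end, the nearest to equal levels was on chromosome 15, with ends at 101946823 and 101946959 (gap 136 nt) and a ratio of 1.05-fold. The plus-strand end had 48.6 and 55.3 CPM in the controls and 26.5, 16.6, 7.33 and 8.16 CPM over the time course, and the minus-strand end 51 and 48.3 CPM, then 30.6, 18.1, 14.7 and 6.43 CPM. Both ends fell at every step up to 4 h, and their slopes differed by 0.01 ± 0.07 log2 per h (SE, adjusted p = 0.955, edgeR). Without the 8 h library the difference was 0.24, and without the 4 h or the second control library it was -0.038 and -0.02. The next was also on chromosome 15, at 98474959 and 98475561 (gap 602 nt, 1.06-fold). Here the plus-strand end had 86.8 and 84.3 CPM in the controls, then 91.1, 120, 114 and 102 CPM. The minus-strand end had 68.8 and 92.6 CPM, then 90.8, 67.3, 62.2 and 51.2 CPM. The slope difference of -0.12 ± 0.04 log2 per h missed the threshold (adjusted p = 0.138, and -0.22 without the 8 h library), and the authors' deposited table gives 6.61 and 3.6 h and 4.12 and 8.13 ribosomes per mRNA.

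Relative to their libraries, single sites of the pairs fell after actinomycin D in about the share seen over all sites. A slope of the log2 level on hours was fitted to every site with at least 60 counts over the 6 libraries, and a site was called at an adjusted p under 0.05 (edgeR, TMM scaling). Of 533 sites 524 were tested: 143 fell (27.3%), against 28.2% of the 16913 sites tested, and 132 rose (25.2%), against 20.8%. The median slope was -0.015 log2 per h for these sites and -0.027 for all, that of sites that fell -0.27 and -0.36, and that of sites that rose 0.17 and 0.18. Scaled by the factors in the authors' header, the median over all sites moved from -0.027 to -0.18 log2 per h, and 294 sites of the pairs fell while 13 rose. The direction called for a single site therefore depends on the scaling, while a difference between partners is taken within each library and does not. Half-lives in the authors' deposited table had a median of 3.13 h over the sites of the pairs (quartiles 1.98 and 5.30 h) and 2.87 h (1.59 and 5.00 h) over the 16454 sites. Plus-strand ends had a median of 3.20 h and minus-strand ends of 2.81 h in the authors' deposited table.

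The half-lives of facing ends showed almost no correlation. In the authors' deposited table the half-lives of partners differed by a median of 2.26-fold over 291 pairs, and by at least 2-fold in 171 of them (58.8%, Wilson 95% interval 53.0 to 64.3). Spearman's rho between the partners' half-lives was -0.074. Adjacent ends on 1 strand differed by a median of 1.30-fold, with 14.9% at least 2-fold apart and a rho of 0.82. For the 61 overlapping pairs the median was 2.43-fold, 57.4% were at least 2-fold apart and rho was -0.20. The deposited rate holds an added 0.1 per h, and the size of every such fold depends on it. The difference between the partners' rates, which that constant leaves as it is, had a median size of 0.176 per h in facing, 0.175 in overlapping and 0.0555 in adjacent pairs. All of these are set side by side, and the differences between the 3 kinds of pair were not tested. The ratio followed no order in the gap: its median was 2.30-fold at gaps up to 100 nt, then 2.07, 2.19 and 2.41-fold, and 2.00-fold over 1000 to 2000 nt, with rho at -0.20, -0.0040, 0.097, -0.12 and 0.15. Adjacent ends on 1 strand grew apart with distance, from 1.24-fold up to 100 nt to 1.44-fold over 500 to 1000 nt, and their rho went from 0.88 to 0.71.

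**Figure D2:**
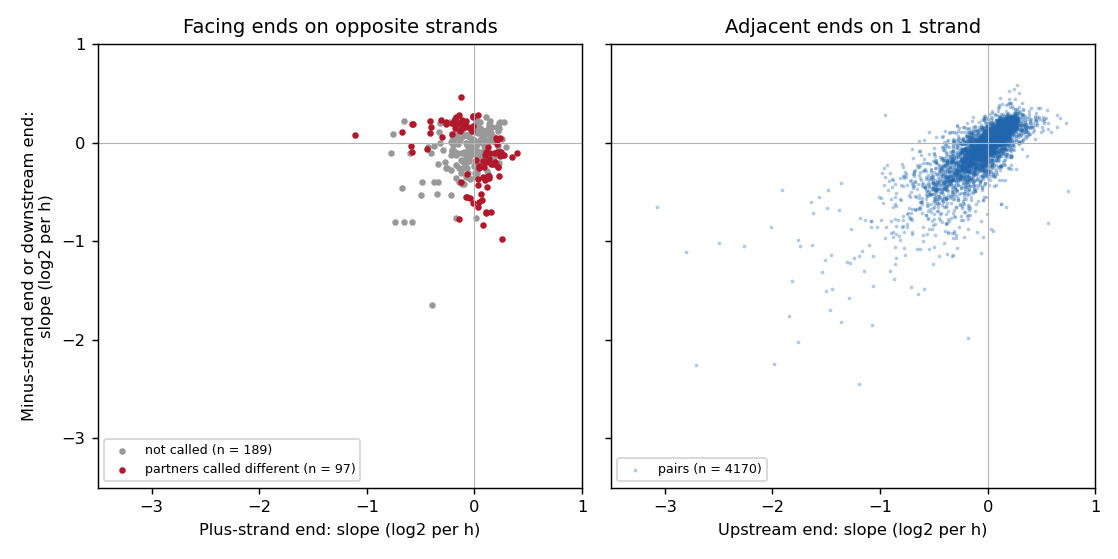
Slope of the log2 level on hours of actinomycin D for the minus-strand against the plus-strand end of 286 facing pairs (left) and for the downstream against the upstream of 4170 pairs of adjacent ends on 1 strand (right). Facing pairs scatter around 0 with the 97 called pairs off the diagonal, while adjacent ends lie along it.

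The difference in slope between partners was tested within libraries for all neighbouring pairs at most 1000 nt apart, facing, overlapping or adjacent on 1 strand, with 60 counts at each end. Among 286 facing pairs tested, 97 were called (33.9%, Wilson 95% interval 28.7 to 39.6), against 5.36% of all 4516 pairs. The minus-strand end was lost faster in 56 of them and the plus-strand end in 41, and over all pairs the minus-strand or downstream end was called as lost faster in 3.43% and slower in 1.93%. Calls were made for 33.3% of 60 overlapping pairs and 3% of 4170 adjacent pairs, at a median SE of 0.069 log2 per h for facing and 0.068 for adjacent pairs. The median size of the difference was 0.23 log2 per h in facing, 0.21 in overlapping and 0.077 in adjacent pairs. Called facing pairs differed by 0.14 to 1.33 log2 per h, with a median of 0.41. They held 84 distinct minus-strand sites, and in 14 the faster end had 3 counts or fewer at 8 h, where the fitted slope depends on few reads. Without the 8 h library 18 and 14 pairs were called as lost faster at the minus-strand and the plus-strand end, without control 2 it was 28 and 24, and without the 4 h library 29 and 25. With DESeq2 in place of edgeR the counts were 75 and 64.

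By gap, 26 of 59 tested pairs were called at up to 100 nt (44.1%, Wilson 95% interval 32.2 to 56.7), 18 of 57 over 100 to 250 nt (31.6%, 21 to 44.5), 22 of 64 over 250 to 500 nt (34.4%, 23.9 to 46.6) and 31 of 106 over 500 to 1000 nt (29.2%, 21.4 to 38.5). These intervals overlap. The median sizes of the difference, 0.20, 0.21, 0.25 and 0.23 log2 per h, followed no such order, and across the 286 pairs the size had a rho of 0.014 with the gap. Without the 8 h library 6 of 59, 9 of 56, 6 of 64 and 11 of 106 pairs were called. For 103 of the 286 pairs the whole 95% interval of the difference lay beyond a 2-fold shift of their ratio in 8 h. The same held for 19 of 60 overlapping and 174 of 4170 adjacent pairs, with intervals not adjusted for the number of pairs. In 7 facing pairs the interval lay inside such a shift, as it did in 4 overlapping and 602 adjacent pairs. The median half-width of that interval was 0.16 log2 per h in facing and in adjacent pairs.

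**Figure D3:**
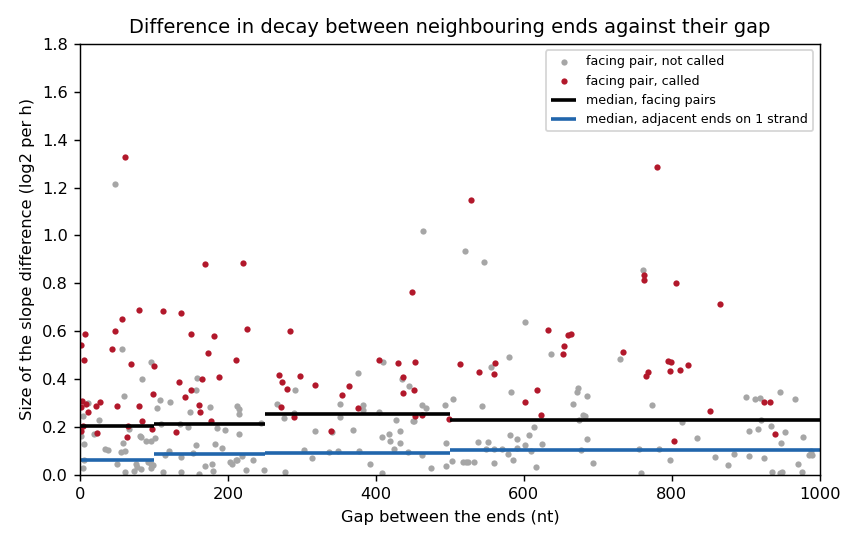
Size of the difference in slope between the 2 ends of a facing pair (log2 per h) against the gap (nt), red where called, with the median of each gap range in black and that of adjacent ends on 1 strand in blue. The black medians stay between 0.20 and 0.25 at every distance, and the blue ones between 0.062 and 0.10.

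The ratio of the ends drifted further from its starting value at each later time. Between the controls, the log2 ratio of minus-strand to plus-strand counts differed by a median of 0.42 (SD 0.69). From the controls it moved either way by a median of 0.48, 0.78, 1.20 and 1.74 after 1, 2, 4 and 8 h, with SDs of 0.88, 1.32, 1.91 and 2.48. At 8 h, 205 of 295 pairs had moved by at least 1. In that library 21 of the 295 pairs had a partner at 0 counts, where the ratio rests on a pseudocount of 0.5. Of 276 pairs with the same more abundant end in both controls, the other end was the more abundant in 17, 28, 42 and 50 after 1, 2, 4 and 8 h. Taking the calls of single sites in the 286 pairs with both ends tested, 11 pairs had both ends rising, 20 both falling and 40 opposite calls, 159 had 1 end called and 56 neither. Of the 40 with opposite calls, 37 were also called in the test between partners. Over all 16913 sites tested, 28.2% fell and 20.8% rose. With the authors' header factors 294 sites of the pairs fell and 13 rose, so these patterns depend on the scaling. The shifts of the ratio, the changes of order and these patterns were not counted in other kinds of pair.

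In 6 of the pairs with the largest differences the minus-strand end was lost faster. At 89202009 and 89202069 on chromosome 15 (gap 60 nt) the plus-strand end had 12.8 and 16.6 CPM in the controls and 17.5, 26.3, 26.7 and 33.9 CPM at 1, 2, 4 and 8 h. Its minus-strand partner had 162 and 144 CPM, then 53.2, 9.9, 6.93 and 0.742 CPM, the last from 3 counts. The weaker end of the controls was thus the stronger from 2 h on. The slopes differed by -1.33 ± 0.17 log2 per h (SE, adjusted p = 0.0076, edgeR), and leaving out 8 h raised the adjusted p to 0.0513. The authors' deposited table gives half-lives of 18.3 and 0.579 h.

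A second crossing pair lay on chromosome 2, with ends at 172181248 and 172181697 (gap 449 nt). Its plus-strand end stayed low, with 3.42 and 2.95 CPM in the controls and 1.47, 1.71, 2.18 and 2.97 CPM. The minus-strand end had 83.2 and 70.4 CPM, then 35, 13.8, 5.55 and 1.24 CPM, and fell below its partner at 8 h. The difference was -0.76 ± 0.07 log2 per h (adjusted p = 0.00496, and 0.0554 without the 8 h library), and the authors' deposited table gives 5.13 and 0.781 h. On chromosome 14, the ends at 21542839 and 21542951 (gap 112 nt) began at similar levels. The plus-strand end had 19.9 and 24.2 CPM in the controls and 20, 22.7, 20.6 and 14.3 CPM. The minus-strand end had 27.4 and 28.6 CPM, then 11.6, 10.4, 2.38 and 0.742 CPM. From 1 h on the minus-strand end was the lower in each library, with a difference of -0.68 ± 0.08 log2 per h (adjusted p = 0.00634) that kept its call under every alternative in which it was tested. Half-lives in the authors' deposited table were 4.09 and 0.943 h.

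The other 3 began with fewer counts or lost their call more easily. At 58128105 and 58128633 on chromosome 11 (gap 528 nt) the plus-strand end had 9.24 and 15.9 CPM in the controls, then 15.4, 23.7, 14.7 and 11.6 CPM, and the minus-strand end 14 and 9.33 CPM, then 4.09, 2.56, 0.396 and 0.247 CPM. Controls overlapped between the ends and no later library did. The difference of -1.15 ± 0.20 log2 per h (adjusted p = 0.023) had adjusted p-values of 0.0516, 0.0824, 0.0513 and 0.0609 without the 2 h, 4 h, 8 h and second control library. At 166860433 and 166861298 on chromosome 2 (gap 865 nt) both ends ended lower. The plus-strand end had 104 and 108 CPM in the controls, then 113, 77.7, 58 and 26.9 CPM, and the minus-strand end 29.8 and 36.2 CPM, then 8.67, 4.95, 2.97 and 0.247 CPM. That difference, -0.71 ± 0.14 log2 per h (adjusted p = 0.0345), kept its call without the 1 h library. Leaving out any of the others gave an adjusted p of 0.063 to 0.142. Half-lives were 5.1 and 0.696 h on chromosome 11 and 2.47 and 0.551 h on chromosome 2 in the authors' deposited table.

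On chromosome 9 the minus-strand end at 108960451 faced more than 1 plus-strand end, and a strong and a weak one of these are set against it. The strong plus-strand end at 108960231 (gap 220 nt) had 108 and 77.7 CPM in the controls and 100, 87.7, 96.3 and 92.7 CPM later. The weak one at 108960282 had 3.94 and 2.33 CPM, then 3.27, 4.27, 2.77 and 4.45 CPM. In the authors' deposited table these 2 ends had half-lives of 5.35 and 7.22 h, where a site with no fall has 6.93 h. In CPM neither declined, whereas the shared minus-strand end had 3.76 and 4.66 CPM in the controls and 1.64, 0.853, 0.594 and 0 CPM later. Against it the slopes differed by -0.88 ± 0.14 log2 per h for the strong end (adjusted p = 0.0155, and 0.101 without the 8 h library) and by -0.88 ± 0.18 for the weak one (adjusted p = 0.0352). The latter was -1.34 without the 4 h library and had an adjusted p of 0.0612 without the 1 h library, 0.0583 without the 2 h and 0.205 without the 8 h library. Over the 44 shared minus-strand sites with half-lives for at least 2 plus-strand ends, those ends spanned a median of 1.39-fold among themselves in the authors' deposited table. The minus-strand end differed from them by a median of 2.09-fold in the authors' deposited table, and at 28 of the 44 the plus-strand ends spanned less than their distance to it. As rates, which the constant does not touch, the median span was 0.0703 per h and the median distance 0.197 per h, with the smaller span at 27 of the 44.

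In the other direction, the plus-strand end was lost faster. Of the 6 pairs with the largest such differences, the most precise was on chromosome 15, with ends at 59162746 and 59163552 (gap 806 nt). The plus-strand end had 531 and 422 CPM in the controls and 281, 142, 31.7 and 7.66 CPM at 1, 2, 4 and 8 h. The minus-strand end had 219 and 211 CPM, then 272, 245, 253 and 226 CPM. The order of the ends was reversed from 2 h on, with a difference of 0.80 ± 0.06 log2 per h (SE, adjusted p = 0.00303, edgeR) and half-lives of 1.02 and 5.54 h in the authors' deposited table. On chromosome 19, the plus-strand end at 34314815 had 26.2 and 22.2 CPM in the controls, then 11.3, 7.85, 2.38 and 0.742 CPM. Its partner at 34315578 (gap 763 nt) had 230 and 169 CPM, then 270, 243, 247 and 335 CPM. The weak end fell at every step and the strong end did not, with a difference of 0.82 ± 0.07 log2 per h (adjusted p = 0.00484) and half-lives of 0.951 and 9.16 h in the authors' deposited table. Both of these pairs kept their call under every alternative in which they were tested.

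The largest difference of this direction was on chromosome 11, at 62079947 and 62080727 (gap 780 nt). Its plus-strand end had 31.7 and 25 CPM in the controls, then 8.02, 1.71, 0.396 and 0.494 CPM, and its minus-strand end 8.73 and 12.3 CPM, then 12.4, 13.5, 10.1 and 9.39 CPM. The plus-strand end was the stronger only in the controls. The difference was 1.29 ± 0.25 log2 per h (adjusted p = 0.0316), with adjusted p-values of 0.0592, 0.0998, 0.0695 and 0.104 without the 1 h, 4 h, first control and second control library. The authors' deposited table gives half-lives of 0.51 and 4.73 h.

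At 87371281 and 87372044 on chromosome 7 (gap 763 nt) the plus-strand end had 21.4 and 24.1 CPM in the controls, then 5.73, 4.61, 2.57 and 0.742 CPM, and the minus-strand end 35.9 and 43.8 CPM, then 50.6, 43.9, 71.1 and 55.6 CPM. The ends differed by 0.84 ± 0.13 log2 per h (adjusted p = 0.016), and the adjusted p was 0.0676, 0.053 and 0.0594 without the 4 h, 8 h and second control library. At 69823610 and 69823690 on chromosome 11 (gap 80 nt) the plus-strand end had 32.5 and 24.6 CPM, then 19.5, 11.4, 2.18 and 2.47 CPM, and the minus-strand end 85.9 and 74.5 CPM, then 81.7, 101, 139 and 135 CPM. The difference was 0.69 ± 0.11 log2 per h (adjusted p = 0.0169), 1.04 without the 8 h library, and had an adjusted p of 0.0594 without control 2. In both pairs the plus-strand end was the lower in all 6 libraries and the distance grew.

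The weakest of these pairs lay on chromosome 6, at 83102569 and 83102705 (gap 136 nt), where the plus-strand end had 8.56 and 10.7 CPM, then 6.71, 3.07, 1.98 and 0 CPM. Its minus-strand end had 7.87 and 5.91 CPM, then 6.05, 6.14, 7.72 and 2.22 CPM. They differed by 0.68 ± 0.12 log2 per h (adjusted p = 0.0218), and the adjusted p was 0.0726, 0.101 and 0.0692 without the 4 h, 8 h and second control library. In the authors' deposited table the half-lives of these last 3 pairs were 0.582 and 8.3 h on chromosome 7, 1.22 and 11.5 h on chromosome 11 and 1.22 and 3.52 h on chromosome 6.

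**Figure D4:**
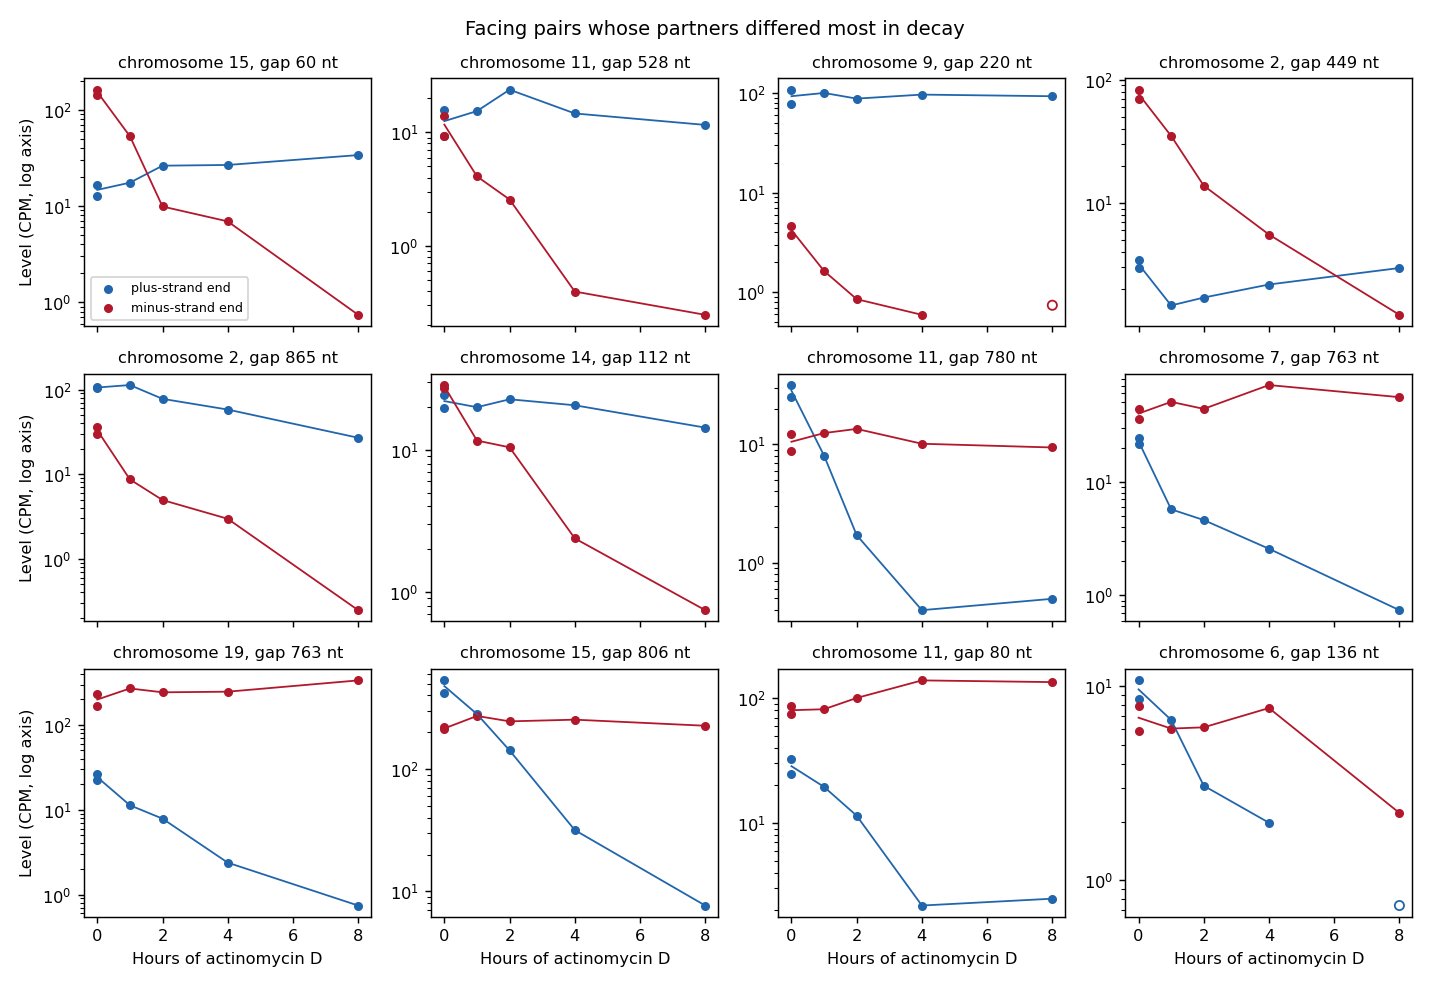
Level (CPM, log axis) of the plus-strand (blue) and minus-strand (red) end against hours of actinomycin D in the 12 named pairs with the largest differences in slope, 6 in each direction, with both controls at 0 h and lines from their mean. Open circles stand for 0 counts and are drawn at 3 counts. In each panel 1 end drops away from a partner whose CPM rises, holds or falls less.

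Some ends that all but touch decayed apart as well, though each call given here was lost without some library. In 4 pairs the gap was 1 nt. At 130105047 and 130105048 on chromosome 2, the pair with the highest weaker end of all, the plus-strand end had 354 and 478 CPM in the controls, then 472, 335, 260 and 205 CPM. The minus-strand end had 231 and 293 CPM, then 306, 266, 307 and 333 CPM. The plus-strand end was the higher up to 2 h and the lower from 4 h, with a difference of 0.18 ± 0.03 log2 per h (SE, adjusted p = 0.011, edgeR). On chromosome 17, the end at 47823691 had 15.4 and 10.6 CPM in the controls, then 10.1, 7.68, 8.12 and 6.43 CPM. Its minus-strand partner at 47823692 had 463 and 381 CPM, then 430, 528, 686 and 974 CPM, a 32.5-fold ratio in the controls. The ratio widened by 0.28 ± 0.04 log2 per h (adjusted p = 0.0109). At 135852011 and 135852012 on chromosome 5 the plus-strand end had 54.8 and 59.1 CPM in the controls, then 46.6, 42.2, 37.6 and 23.7 CPM. The minus-strand end had 35.1 and 27.7 CPM, then 15.5, 5.97, 1.98 and 1.48 CPM. Both fell at every step, the minus-strand end the more steeply (-0.54 ± 0.11 log2 per h, adjusted p = 0.0355). At 118035348 and 118035349 on chromosome 4, with control levels of 16.3 and 12.7 CPM on the plus strand and 8.21 and 9.33 CPM on the minus strand, the difference of -0.16 ± 0.07 log2 per h missed the threshold (adjusted p = 0.212) and was -0.39 without the 8 h library. Without that library the adjusted p became 0.108 on chromosome 2 and 0.0852 on chromosome 17, and on chromosome 5 the difference was -0.87 and kept its call. Leaving out any other library gave chromosome 5 an adjusted p of 0.0567 to 0.107. Half-lives in the authors' deposited table were 3.04 and 6.77 h, 2.93 and 30.1 h, 2.93 and 0.826 h, and 7.5 and 3.39 h in these 4 pairs. The 11 pairs with gaps of 5 nt or less also held near-equal half-lives, as at 72558416 and 72558420 on chromosome 6 (2.67 and 2.87 h). Others were unequal, as at 6115991 and 6115996 on chromosome 19 (5.72 and 1.34 h), all in the authors' deposited table.

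None of the 3 pairs named for a large gap passed the threshold. At 71065012 and 71066001 on chromosome 12 (gap 989 nt, 29.4-fold apart) the plus-strand end had 3.76 and 6.53 CPM in the controls and 0.989 CPM at 8 h, and the minus-strand end 139 and 164 CPM and 45.7 CPM. The level at 8 h was 5.21-fold below the controls at the plus-strand end and 3.31-fold below at the minus-strand end. The slopes differed by 0.08 ± 0.08 log2 per h (adjusted p = 0.588, edgeR), with a 95% interval of -0.10 to 0.27, and by 0.13 without the 8 h library and 0.03 without control 2. The ends at 13616379 and 13617364 on chromosome 7 (gap 985 nt), both among the more abundant, differed by 0.08 ± 0.04 (adjusted p = 0.222), and those at 118961800 and 118962736 on chromosome 2 (gap 936 nt) by 0.01 ± 0.08 (adjusted p = 0.963). The last had no stable direction, at -0.11 without the 8 h library and -0.02 without control 1. Of the pairs with the highest weaker ends, 68838542 and 68839214 on chromosome 3 (gap 672 nt) had controls that disagreed on the plus strand, 103 and 221 CPM. Its difference of -0.34 ± 0.10 log2 per h had an adjusted p of 0.0978, was called with DESeq2 (adjusted p = 0.0108) and was -0.63 without the 8 h library. The strong end was the one lost more slowly in the 3 most unequal pairs: their differences were -0.18 ± 0.04 at 48619586 (adjusted p = 0.0352), -0.34 ± 0.04 at 179993146 (adjusted p = 0.00647) and 0.20 ± 0.05 at 115754910, which missed the threshold (adjusted p = 0.0762, and 0.0476 with DESeq2). With 8 h left out the adjusted p was 0.216 at 48619586 and 0.0832 at 179993146, and the difference at 115754910 was 0.40. The pair at 48619586 kept its call only without the 1 h library among those left out, with 0.0594 to 0.0918 without any of the others.

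The ribosome loads of facing ends showed almost no correlation either. In the authors' deposited table the sites of the pairs had a median of 6.24 ribosomes per mRNA (quartiles 5.02 and 7.26), against 6.41 (5.26 and 7.49) over the 16454 sites, with 6.35 for plus-strand and 6.09 for minus-strand ends. Partners differed by a median of 1.56 ribosomes in the authors' deposited table, and by at least 1 in 204 of 295 pairs (69.2%). Spearman's rho between them was 0.036. Adjacent ends on 1 strand differed by a median of 0.255, with 5.83% at least 1 apart and a rho of 0.94, all from the authors' deposited table. The 61 overlapping pairs were like the facing ones in the authors' deposited table, with a median of 1.60, 63.9% at least 1 apart and a rho of 0.15. For the 182 facing pairs with gaps over 1000 to 2000 nt these values were 1.68, 68.7% and 0.016. The median difference between facing ends was 1.61 at gaps up to 100 nt, then 1.87, 1.38 and 1.37 in the longer ranges, and across the pairs it had a rho of -0.075 with the gap. The differences between these kinds of pair were not tested.

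A slope on the rank of the fraction gave few calls at any kind of site. Of 510 sites tested with edgeR, 21 fell towards the heavy fractions at an adjusted p under 0.05 (4.12%, against 4.28% of 18484 sites). In the same fit 0 rose (0.438% of all sites). At an unadjusted p under 0.05 with edgeR, 58 of the 510 fell and 29 rose, against 1936 and 1245 of the 18484. DESeq2 called 41 and 5 sites of the pairs. Scaled by the authors' header factors, the median slope over all sites moved from 0.04 to 0.50 log2 per fraction and the counts to 4 that fell and 182 that rose, so these directions too depend on the scaling. Without the library named 7.5 it was 5 that fell, without 0 it was 40 that fell and 11 that rose, and without 1 it was 10 that fell.

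In the test between partners, 5 of 272 facing pairs were called over the gradient (1.84%, Wilson 95% interval 0.788 to 4.23), against 0.224% of all 4471 pairs. In 3 the minus-strand end lay in lighter fractions than its partner (0.0671% of all pairs were called with the minus-strand or downstream end lower) and in 2 in heavier ones (0.157%). Of 4145 adjacent pairs 0.121% were called, and of 54 overlapping pairs 0. The overlapping pairs had a median size of the difference of 0.32 log2 per fraction with a median SE of 0.18. At an unadjusted p under 0.05 with edgeR there were 95 of 272 facing, 18 of 54 overlapping and 398 of 4145 adjacent pairs. DESeq2 called 16 and 12 facing pairs in the 2 directions. The median size of the difference was 0.31 log2 per fraction with a median SE of 0.18, against 0.071 and 0.083 for adjacent pairs. The 95% interval of a facing pair had a median half-width of 0.43, wider than the median difference. No pair was called with edgeR without the library named 1, 2.5 or 7.5 (60, 73 and 73 at an unadjusted p under 0.05), while 10 and 4 were called in the 2 directions without 0, 1 and 3 without 12, and 1 and 2 without 4.5. Of the 5, 2 had gaps up to 100 nt and 1 fell in each longer range.

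In the 5 called pairs the ends had their highest levels in different fractions. Levels over the fractions are CPM, and the rise or fall of a single end depends on that scaling. At 36902046 and 36902114 on chromosome 18 (gap 68 nt) the plus-strand end had 0.601, 0.958, 2.55, 2.72, 4.32 and 5.27 CPM in the libraries named 0, 1, 2.5, 4.5, 7.5 and 12, the first from 1 count. Its minus-strand end had 495, 688, 954, 718, 209 and 154 CPM. The weak end rose at every step, to 32.1% of its summed CPM in the heaviest fraction, where the strong end had 4.77%. The difference was -1.24 ± 0.13 log2 per fraction (SE, adjusted p = 0.0217, edgeR), and the authors' deposited table gives 7.61 and 3.73 ribosomes per mRNA. On chromosome 11, the plus-strand end at 77994272 had 3.01, 6.23, 4.8, 7.06, 5.85 and 3.8 CPM. Its partner at 77994422 (gap 150 nt) had 890, 1160, 273, 225, 78.9 and 45.2 CPM. The strong end lay mostly in the 2 lightest fractions, with a difference of -1.0 ± 0.09 (adjusted p = 0.0136) and 5.45 and 2.36 ribosomes per mRNA in the authors' deposited table. These 2 pairs were the only ones called in both series: after actinomycin D the minus-strand end was lost more slowly, by 0.46 ± 0.06 log2 per h (adjusted p = 0.0108, and 0.0536 without the 8 h library) on chromosome 18 and 0.59 ± 0.06 (adjusted p = 0.00573) on chromosome 11.

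Also on chromosome 11, the ends at 102150548 and 102150614 (gap 66 nt) had 2.4, 3.35, 5.85, 7.83, 8.35 and 7.17 CPM on the plus strand and 98, 141, 158, 118, 67.5 and 40.1 CPM on the minus strand (-0.70 ± 0.07 log2 per fraction, adjusted p = 0.0136). The minus-strand end peaked in a lighter fraction than its partner. On chromosome 15, the plus-strand end at 100309593 fell through the fractions in CPM, with 204, 173, 112, 36.2, 27.3 and 17.7 CPM, a profile that depends on the scaling. Its minus-strand partner at 100310002 (gap 409 nt) had 1.8, 3.59, 5.25, 7.93, 7.68 and 9.68 CPM, a difference of 1.19 ± 0.11 log2 per fraction (adjusted p = 0.0136). On chromosome 10, the plus-strand end at 79519187 had 10.2, 22, 8.25, 1.3, 0.768 and 1.64 CPM. The minus-strand end at 79519742 (gap 555 nt) had 0.601, 5.99, 4.5, 3.15, 1.44 and 7.08 CPM, uneven from fraction to fraction, and the difference was 1.04 ± 0.13 (adjusted p = 0.034). Ribosomes per mRNA in the authors' deposited table were 6.5 and 4.14, 2.83 and 7.04, and 2.52 and 6.7 in these 3 pairs. Across the 5 pairs the adjusted p was 0.14 to 0.279 without the library named 1, 0.104 to 0.195 without 2.5 and 0.106 to 0.141 without 7.5. It was also over the threshold without 12 in 3 pairs (0.0579 to 0.0904), without 4.5 in 2 (0.054 in both) and without 0 on chromosome 10 (0.0645).

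**Figure D5:**
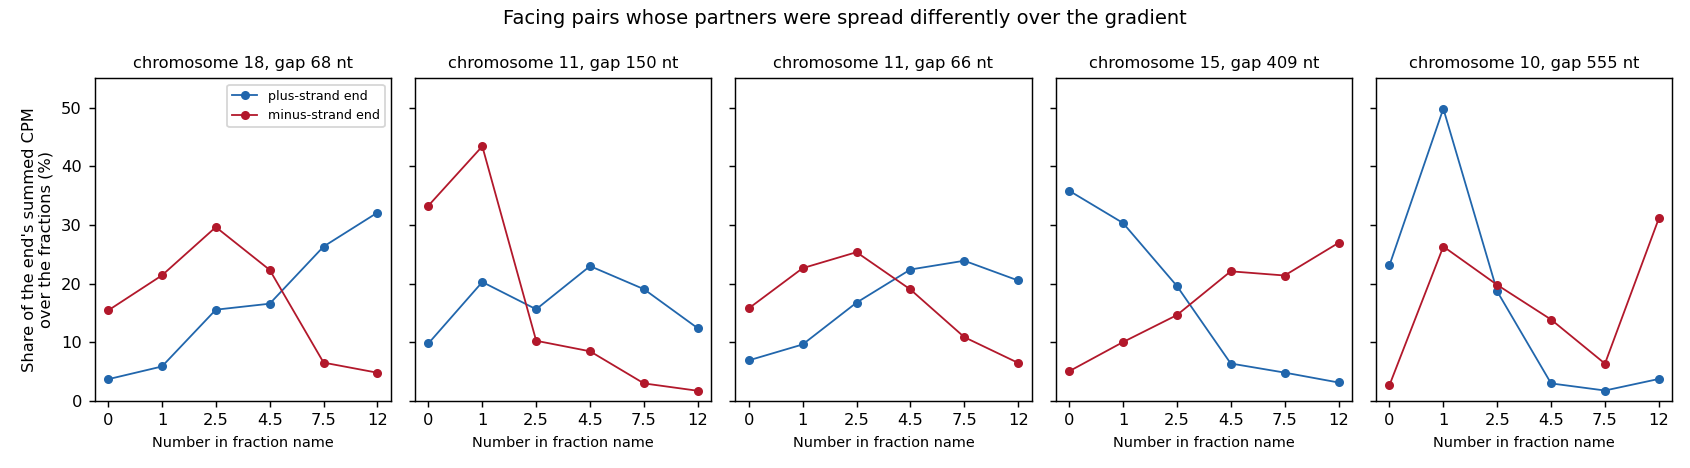
Share of an end's CPM summed over the 6 fractions (%) that each fraction held, by the number in the fraction name, for the plus-strand (blue) and minus-strand (red) end of the 5 pairs called over the gradient. The ends of a pair peak in different fractions, and on chromosome 18 the plus-strand end reaches 32.1% in the heaviest where its partner has 4.77%. The profile of a single end depends on the scaling to CPM.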

How the data were processed

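2P-Seq profiled poly(A) sites in 3T3 cells. The authors' deposited table holds raw read counts per site, strand and library, in mm9 positions per the file headers, with a factor per library. Alignment was by Bowtie, per the submitters' processing notes, in a version not given in the sources used here. Ribosomes per mRNA, a score the authors deposited, was recomputed for 533 of 533 sites within 1e-06 by weighting the number in each fraction name by the scaled counts. The column names show these numbers and not the fraction numbers of the labels, so libraries are called by them. The half-life is also a score of the authors' deposited table, with no unit in its header. An exponential fit to the time course, with 0.1 per h added to its rate, gave the deposited rate of 528 of 529 sites (tolerance 0.001 per h), so it was read in hours, and a site with no fall has 6.93 h.

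Counts were tested with the quasi-likelihood F test of edgeR 4.0.16 in R 4.3.3 (robust, TMM, Benjamini-Hochberg over all sites or pairs tested, 60 counts over the 6 libraries per end). Sites had a slope on hours, with controls at 0 h, or on the rank of the fraction. Pairs had library terms, a partner term and the partner by hours or rank interaction, given as minus-strand less plus-strand or downstream less upstream. Log2 ratios of counts used a pseudocount of 0.5. DESeq2 1.42.0 was an alternative, as were other scalings, minimums, pair rules and left-out libraries. Scripts were tested on simulated data. Pairs are named by a rule: the largest called differences per direction (up to 6 after actinomycin D, 4 over the gradient), the 3 smallest and largest gaps, the 4 highest weaker ends, the 3 largest ratios and the 2 nearest to equal. The 4 pairs tied at 1 nt are all named, and of pairs sharing a site the one with more counts stands. The further plus-strand end on chromosome 9 was chosen after its values were seen. Members, lists and rule were chosen with earlier results of these data known. An mm9 genome was not used here, so no sequence is shown. Wilson intervals treat pairs as independent, which those with a common end or library are not.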

Additional observations from a re-analysis of the deposited data

How the results depend on the processing

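Of the differences of single pairs, 451 values under an alternative kept their direction and side of the threshold, 66 lost the threshold and 6 gained it. The direction turned in 4, all of uncalled pairs: to -0.038 and -0.02 at 101946823 without the 4 h and second control library, and to -0.11 and -0.02 at 118961800 without the 8 h and first control library. With 1 library left out these pairs reached at most 0.24 and 0.085. No paired analysis was possible because the libraries of each time and fraction carry no replicate number shared with the controls. After actinomycin D, leaving out 1 library at a time gave 18 to 45 pairs with the minus-strand end lost faster and 14 to 37 with the plus-strand end, and 86 to 131 sites that fell and 99 to 135 that rose. Over the gradient it gave 0 to 10 and 0 to 4 pairs, and 5 to 40 and 0 to 11 sites. DESeq2 called 64 pairs with the plus-strand end lost faster, and over the gradient 16 and 12 pairs and 41 and 5 sites. The authors' factors gave 294 sites that fell and 13 that rose, and 4 and 182 over the gradient. A gap limit of 500 nt left 37 pairs with the minus-strand end lost faster, 91 sites that fell and 85 that rose, and over the gradient 1 pair with the minus-strand end heavier and 13 sites that fell, from fewer pairs by construction. Over the gradient, 100 control counts or mutual nearest pairs also left 1 pair heavier, and a minimum of 300 counts left 0 lighter (44 at an unadjusted p under 0.05 with edgeR) and 1 heavier. With the number in the fraction name as covariate, edgeR called 0 and 0 pairs (109 at an unadjusted p under 0.05) and 3 sites that rose, and all 5 named pairs lost their call (adjusted p 0.0815 to 0.19). The cause was not tested. The counts by gap without the 8 h library and the differences in rate were added after seeing the data. With 300 counts, 21 of 38, 11 of 33, 22 of 34 and 27 of 55 pairs were called from the shortest gap range to the longest.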

Other observations

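The weaker and the stronger end of a pair were also compared, with control 1 alone deciding which was which, so that the 1 h to 8 h change rested on other libraries. The weaker ends had a median log2 change in CPM of -1.11 between 1 and 8 h and the stronger ends of -0.74, and the weaker end had the lower change in 160 of 295 pairs. In the authors' deposited table their median half-lives were 2.79 and 3.49 h and their median ribosomes per mRNA 6.23 and 6.25. Those half-lives were estimated over the actinomycin D series, in which control 1 can take part, so they are a description. Of the 97 pairs called after actinomycin D, the weaker end by both controls was the one lost faster in 58. The controls also enter that test, so the count is a description. Neither this count nor the 160 was made for other kinds of pair.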
